A study of Homo sapiens with 6 samples.

Results

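The genes described here were the chromosome 19 members of the ZNF family of zinc finger genes. They were chosen by 3 criteria: a protein-coding gene on chromosome 19, a symbol made of ZNF, digits and an optional letter, and at least 60 raw counts summed over the 6 libraries of the deposited table. Of 244 such genes in a table of 63677 genes, 160 reached that sum, 50 had fewer counts and 34 had 0 counts in all libraries. The measured value behind the choice was therefore the summed count, which does not use the condition of a library, and the members' detection is no result. *ZNF615* with 52 and *ZNF724* with 53 counts lay just below the limit, and *ZNF461* and *ZNF443* with 61 counts each lay just above it.

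The libraries came from LoVo, an established human colorectal cancer cell line, in a study of *SNHG15*, a long noncoding RNA that hosts a small nucleolar RNA. In 3 scramble libraries the cells had received a negative control siRNA, and in 3 siRNA libraries a mixture of the 2 *SNHG15* siRNAs, in each case at 25 nM for 48 h by lipid transfection. RNA was read as poly(A)-selected, stranded, paired-end libraries of 75 bases. All 6 libraries came from a single parental line, the siRNAs were given only as a mixture, and no untransfected cells were in the comparison. Library totals ran from 3446922 counts in scramble replicate 3 to 10256710 in scramble replicate 2. *SNHG15* itself was at 276 ± 14.3 CPM in the scramble libraries and 82.5 ± 5.0 CPM in the siRNA libraries (SD, n = 3 each), where CPM is counts per 1000000 counts of the tested genes after TMM scaling. Of 12 markers of colorectal epithelium, 4 (*CDH1*, *CDX2*, *KRT8* and *KRT18*) reached 1 CPM, *CDX1*, *CEACAM6*, *KRT20* and *VIL1* had 0 counts in all libraries, and *EPCAM* had at most 1 count, so that most defining markers of the labelled cell type were at or near 0. The summed level of these markers was 103 to 110 CPM in the scramble and 107 to 117 CPM in the siRNA libraries. Of 10 markers of blood, stromal and endothelial cells, 9 were in the table and none reached 1 CPM, with a summed level of 0.352 to 0.696 CPM in the scramble and 1.01 to 1.53 CPM in the siRNA libraries, and with *COL3A1* and *DCN* at 0 counts in all libraries. The sums of these other-cell markers did not overlap between conditions, and their part in the results was not tested. *GAPDH* at 24.4 CPM and *EEF1A1* at 29.1 CPM on average, housekeeping genes with many processed pseudogenes, were also low, beside 4202 CPM for the pseudogene *RPS18P5*.

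Zinc finger proteins of the C2H2 class bind DNA through repeated fingers, in each of which a zinc ion is held by a pair of cysteines and a pair of histidines. Most of those encoded on chromosome 19 arose by tandem duplication, and many carry an amino-terminal KRAB domain that recruits the corepressor KAP1 (*TRIM28*), which in turn brings in the histone methyltransferase *SETDB1* and HP1 proteins. Many KRAB zinc finger proteins silence transposable elements in this way. In the longest open reading frames of the GENCODE transcripts, 129 of the 160 members held a KRAB A box pattern and 2 (*ZNF444* and *ZNF446*) a SCAN pattern, an oligomerisation domain. The members encoded between 1 and 31 C2H2 finger patterns, with a median of 12.

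The finger is the unit that defines the family, so the first unit with standard spacing in each of the 4 genes that passed the test below is shown, with the codons of the zinc-binding cysteines and histidines in capitals. These genomic sequences (GRCh37, strand of the gene) run from the first cysteine through the linker to the next finger and each occurred once in the genome. They lie at chr19:21719378-21719461 (+) for *ZNF429*, chr19:11942511-11942594 (+) for *ZNF440*, chr19:9764207-9764290 (-) for *ZNF562* and chr19:12127169-12127252 (-) for *ZNF433*.
ZNF429: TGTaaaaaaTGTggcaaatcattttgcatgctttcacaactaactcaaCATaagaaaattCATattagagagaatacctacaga
ZNF440: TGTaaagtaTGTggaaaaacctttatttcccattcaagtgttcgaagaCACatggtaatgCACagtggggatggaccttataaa
ZNF562: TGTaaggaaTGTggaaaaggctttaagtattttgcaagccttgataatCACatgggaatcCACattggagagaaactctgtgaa
ZNF433: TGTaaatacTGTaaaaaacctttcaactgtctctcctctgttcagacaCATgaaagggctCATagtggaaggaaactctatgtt
Compared position by position, *ZNF440* and *ZNF562* shared 55 of 84 bases (65.5%) in these units, and the other pairs shared 42 to 48. A read that lies in a conserved finger can match several members. Over the 160 members, a median of 99.6% of the 75-base windows of their merged exons occurred once in the genome (range 75.0% to 100%). Of these, 10 fell below 90%, with *ZNF417* lowest, and 54 were at 100%. The 4 genes that passed the test had 99.9% (*ZNF429*), 95.1% (*ZNF440*), 96.7% (*ZNF562*) and 100% (*ZNF433*) of such windows. Of the 9 tested members below 90%, 0 passed edgeR's quasi-likelihood test, 0 had an unadjusted p under 0.05 and 0 were called by DESeq2. Over all genes tested, 5.36% passed edgeR's test and 22.5% had such an unadjusted p.

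The members were low in abundance. The median member had 255.5 counts over the 6 libraries together, with a range of 61 to 3210, and 145 of 160 had under 1000. In single libraries the median member count ran from 19.5 in scramble replicate 3 to 62.5 in scramble replicate 2, and 8 members had 3 or fewer counts in scramble replicate 3. Together the members took 0.147%, 0.152% and 0.147% of all counts in the scramble libraries, against 0.160%, 0.157% and 0.165% in the siRNA libraries. As summed CPM this was 1533 ± 14.9 against 1565 ± 27.1 (SD, n = 3), with 1523, 1551 and 1527 CPM in the scramble and 1591, 1537 and 1566 CPM in the siRNA libraries. The shares of raw counts did not overlap between conditions, whereas the summed CPM did. The TMM factors used for CPM also did not overlap. They were 0.965, 0.982 and 0.961 in the scramble and 1.01, 1.03 and 1.06 in the siRNA libraries. With 3 libraries against 3, the smallest p that an exact permutation test can give is 0.1. In such bulk RNA, fewer cells that express a gene and less of its RNA per cell cannot be told apart.

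The comparison of siRNA with scramble libraries asked whether depletion of *SNHG15* was accompanied by a change of these genes. Of the 157 members that passed the filter on low counts, 3 rose (*ZNF429*, *ZNF440* and *ZNF562*) and 1 fell (*ZNF433*) at an adjusted p of 0.05 (edgeR's quasi-likelihood test, Benjamini-Hochberg adjustment over all 12507 genes tested). That is 2.55% of the members, beside 5.36% of all genes tested, 3.13% of them higher and 2.23% lower. At an unadjusted p under 0.05 stood 26 members, 16 higher and 10 lower (16.6%, beside 22.5% of all genes tested). The conditions did not overlap in 31 members, 19 of them higher and 12 lower (19.7%, beside 28.8% of all genes tested). The differences between these shares were not tested. The members also had wider errors, with a median standard error of 0.24 on the log2 scale against 0.17 over all genes tested, and a median level of 5.94 against 23.3 CPM.

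**Figure D1:**
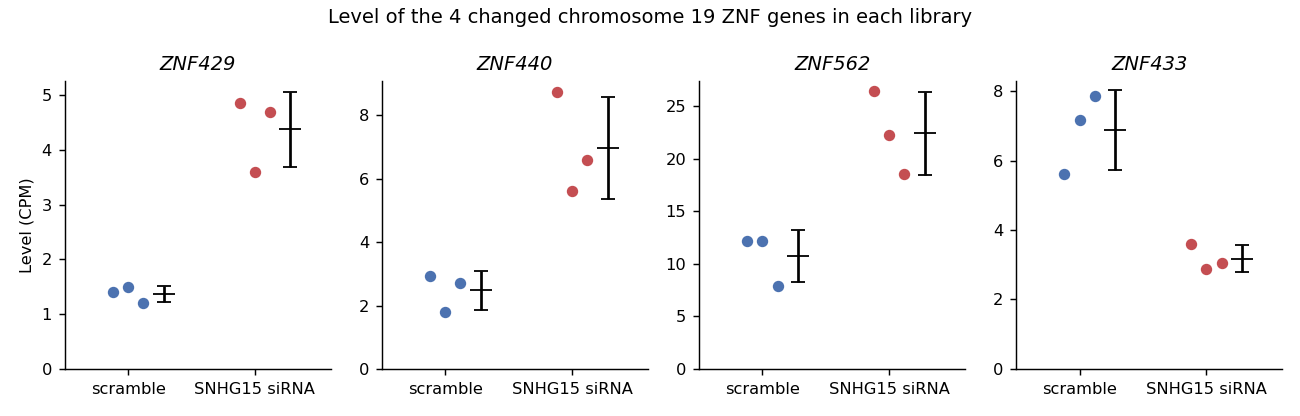
Level in CPM (y axis, linear from 0) of the 4 genes that passed the test in each scramble (blue) and siRNA (red) library, with mean and SD (black, n = 3). In *ZNF429*, *ZNF440* and *ZNF562* all 3 siRNA libraries lie above the scramble libraries, and in *ZNF433* below them.

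*ZNF429* had the largest change among the tested members. It lies at chr19:21679484-21739072 (+, GRCh37) and encodes a KRAB protein with 15 finger patterns. Its level was 1.41, 1.49 and 1.21 CPM in the scramble libraries, in order of replicate, against 4.85, 3.6 and 4.70 CPM in the siRNA libraries, from 12, 15 and 4 against 35, 25 and 40 counts. Every siRNA library lay above every scramble library. The log2 fold change was 1.63 (SE 0.29, 95% interval 1.00 to 2.27, adjusted p = 0.00823, edgeR's quasi-likelihood test). The gene rose from a low level, and its scramble libraries alone would not have met the filter on low counts, which its siRNA libraries met. A noncoding gene on the same strand, *LINC00664*, shared 2.54% of the exon bases of *ZNF429* and had 3 to 15 counts per library.

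*ZNF440*, a KRAB gene with 10 finger patterns at chr19:11925088-11946031 (+), stood at 2.93, 1.79 and 2.72 CPM in the scramble and 8.73, 5.61 and 6.58 CPM in the siRNA libraries. The conditions did not overlap, and siRNA replicate 1 was the highest. The log2 fold change was 1.53 (SE 0.29, 95% interval 0.91 to 2.14, adjusted p = 0.00991, edgeR's quasi-likelihood test). The counts behind it were 25, 18 and 9 against 63, 39 and 56.

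*ZNF562* had the most counts of the 4, with a KRAB pattern and 6 finger patterns at chr19:9752483-9785776 (-). Its level was 12.2, 12.1 and 7.86 CPM in the scramble and 26.5, 22.3 and 18.6 CPM in the siRNA libraries, with no overlap. The log2 fold change was 1.01 (SE 0.20, 95% interval 0.59 to 1.43, adjusted p = 0.0118, edgeR's quasi-likelihood test). The antisense noncoding gene *ZNF561-AS1* covered 50.7% of its exon bases and had 75, 81 and 39 counts in the scramble and 74, 64 and 76 in the siRNA libraries (log2 fold change 0.04, adjusted p = 0.938). The counting's use of strand is not given in the sources used here, so reads of the overlap of *ZNF562* and this partner cannot be told apart.

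*ZNF433* was the member that fell. It encodes a KRAB protein with 18 finger patterns at chr19:12125530-12146556 (-). Its level was 5.62, 7.16 and 7.86 CPM in the scramble and 3.6, 2.88 and 3.05 CPM in the siRNA libraries, and all siRNA libraries were below the lowest scramble library. The log2 fold change was -1.08 (SE 0.24, 95% interval -1.61 to -0.56, adjusted p = 0.0223, edgeR's quasi-likelihood test), from 48, 72 and 26 against 26, 20 and 26 counts. Its antisense partner *ZNF433-AS1*, which covered 15.7% of the exon bases, had more counts, with 389, 459 and 143 against 426, 424 and 480 counts, and its log2 fold change was 0.39 (adjusted p = 0.0889). The gene and its partner had log2 fold changes of opposite sign, and reads of their overlap cannot be told apart either.

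The 4 calls rested on few libraries. Without scramble replicate 2, the most deeply counted one, 0 of 159 tested members passed edgeR's quasi-likelihood test, 17 had an unadjusted p under 0.05, and the genes called over the whole table fell from 671 to 139. The log2 fold changes were then 1.70 for *ZNF429* (adjusted p = 0.0551), 1.29 for *ZNF440* (adjusted p = 0.0790), 1.10 for *ZNF562* (adjusted p = 0.0555) and -1.02 for *ZNF433* (adjusted p = 0.114). DESeq2 on all 6 libraries called 5 members, these 4 and *ZNF556*. Of the 6 fits that left out 1 library, *ZNF440* and *ZNF562* each passed in 5, *ZNF429* in 4 and *ZNF433* in 2. *ZNF433* had an adjusted p of 0.0524 to 0.114 in those without scramble replicate 2 or 3 or siRNA replicate 2 or 3. *ZNF429* missed the threshold also without scramble replicate 1 (adjusted p = 0.0505).

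The next members by p, 5 with an adjusted p between 0.05 and 0.1, did not pass the test and are given as values, chosen after these were seen. *ZNF556*, a KRAB gene with 9 finger patterns, was at 2.34, 2.59 and 1.21 CPM in the scramble and 11, 4.46 and 3.76 CPM in the siRNA libraries (log2 fold change 1.5, SE 0.42, adjusted p = 0.0542, edgeR's quasi-likelihood test). Its conditions did not overlap, but siRNA replicate 1 was far above the other siRNA libraries. Here too the scramble libraries alone would not have met the filter on low counts. *ZNF69*, with 13 finger patterns, was at 2.34, 2.19 and 2.12 CPM against 4.71, 4.17 and 3.99 CPM (log2 fold change 0.93, adjusted p = 0.0562). *ZNF114* had a log2 fold change of 0.76 (adjusted p = 0.0695). *ZNF91*, a known repressor of SVA and L1 retrotransposons and the member with the most finger patterns, 31, was at 13.8, 13.8 and 11.8 CPM against 19.3, 17 and 21.8 CPM (log2 fold change 0.54, SE 0.16, adjusted p = 0.0712). *ZNF85* had a log2 fold change of -0.85 (adjusted p = 0.0877). In all 5 the conditions did not overlap, as in 28.8% of all genes tested. Because the 5 were picked by their small p, this adds no support.

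Over all 157 tested members, the fold changes were centred on 0. The median log2 fold change was 0.01, with quartiles of -0.22 and 0.27 and a range of -1.08 to 1.63, and 80 members had a positive and 77 a negative value. The median was 0.00 over all genes tested, of which 5.36% were called. It was 0.05 over 619 other protein-coding genes of chromosome 19, of which 23 rose and 11 fell (5.49%). Over 184 ZNF genes on other chromosomes it was -0.07, and 1 of them rose and 4 fell (2.72%). In 115 members (73.2%) the 95% interval lay within a 2-fold change in either direction, against 81.1% of all genes tested. In the remaining 42 members the interval reached a 2-fold change or went beyond it. This differed with abundance, since the interval was that narrow in 73 of the 78 members above the median level and in 42 of the 79 at or below it. The 3 members *ZNF429*, *ZNF440* and *ZNF433* belonged to the less abundant 79 and *ZNF562* to the others.

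**Figure D2:**
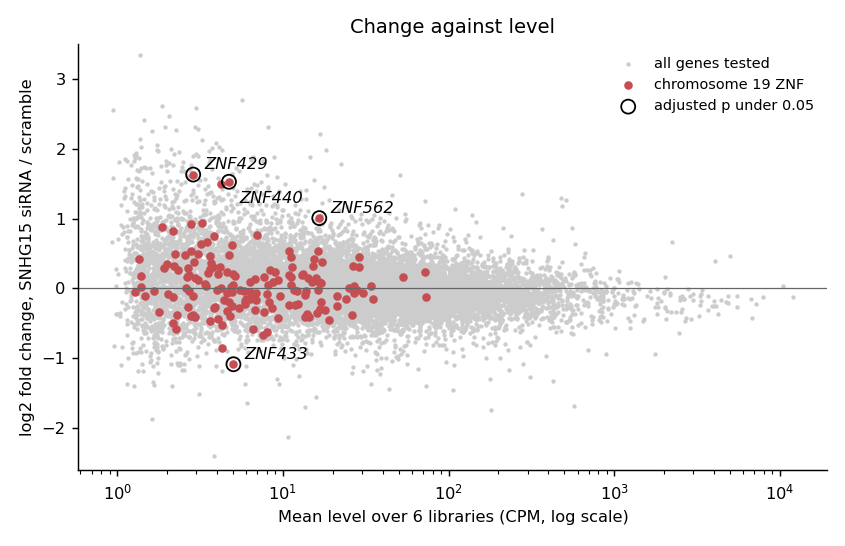
Log2 fold change between siRNA and scramble libraries (y axis) against the mean level over 6 libraries in CPM (x axis, log scale) for all 12507 genes tested (grey) and the 157 tested members (red), with the 4 members past an adjusted p of 0.05 circled. The members sit at the low end of the abundance range and spread to both sides of 0.

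**Figure D3:**
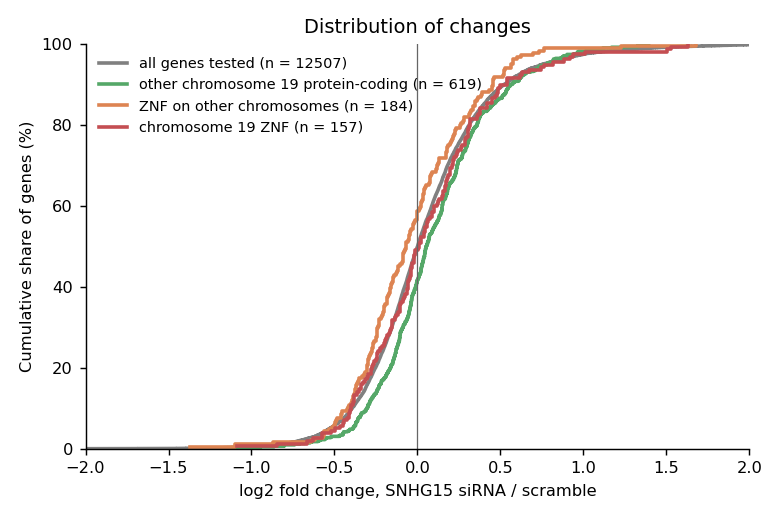
Cumulative share of genes in percent (y axis) by log2 fold change (x axis, cut at both ends, where a few genes lie beyond it) for the 157 tested members, 184 ZNF genes on other chromosomes, 619 other protein-coding genes of chromosome 19 and all 12507 genes tested. The members' curve runs close to that of all genes, with a median of 0.01 against 0.00.

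On the CPM scale, which does not correct for gene length, *ZNF121*, *ZNF428*, *ZNF581*, *ZNF787* and *ZNF544* had the highest levels, and none of the 5 passed the test. *ZNF121*, with 9 finger patterns and no KRAB pattern, was at 76.8 ± 10.0 CPM in the scramble and 69.8 ± 12.6 CPM in the siRNA libraries (SD, n = 3, log2 fold change -0.13, adjusted p = 0.672, edgeR's quasi-likelihood test). *ZNF428*, with 1 finger pattern, was at 66.2 ± 3.25 and 77.3 ± 9.11 CPM (log2 fold change 0.23, adjusted p = 0.323). In both genes the libraries of the conditions overlapped. *ZNF581* had a log2 fold change of 0.16 (adjusted p = 0.580), *ZNF787* of -0.15 (adjusted p = 0.596) and *ZNF544* of 0.04 (adjusted p = 0.901). Per kilobase of merged exons the order was *ZNF428* (46.2 CPM per kb), *ZNF581* (32.6), *ZNF296* (10.6), *ZNF121* (10.1) and *ZNF787* (9.47). *ZNF121* fell to the fourth place on that scale because its exons span 7246 bases against 1553 for *ZNF428*. *ZNF428* shared 32.1% of its exon bases with *SRRM5* on the opposite strand, which had 0 to 2 counts per library. *ZNF581* shared 24.9% with *ZNF580* and 7.46% with *CCDC106*, both on the same strand. Reads of these shared bases cannot be told apart.

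Some members have a known role, and these were singled out for it after their values were seen. *ZNF350*, also called ZBRK1, is a BRCA1-binding repressor of *GADD45A*, and its log2 fold change was -0.43 (SE 0.19, adjusted p = 0.217, edgeR's quasi-likelihood test), with 9.61, 10.9 and 11.5 CPM in the scramble and 7.07, 9.35 and 7.28 CPM in the siRNA libraries. The conditions of *ZNF350* did not overlap, but it did not pass the test. *ZNF473*, which takes part in histone pre-mRNA processing, had a log2 fold change of -0.30 (adjusted p = 0.313). *ZNF417* and *ZNF587*, near-identical repressors of endogenous retroviruses, had 0.20 (adjusted p = 0.731) and -0.20 (adjusted p = 0.693), and with 75.0% and 82.5% of unique windows their counts are uncertain. *ZNF175*, a repressor of the HIV long terminal repeat, had -0.15 (adjusted p = 0.721). Other chromosome 19 genes of known role were outside the members: *ZNF274*, which targets SETDB1 to zinc finger gene clusters, had at most 5 counts in a library, and *ZNF224*, a KRAB repressor, at most 3.

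The genes fell into 16 clusters along the chromosome, split where the next start was over 1000000 bases away. The cluster from *ZNF653* to *ZNF791* (chr19:11594242-12744654) held both *ZNF440* and *ZNF433*. Its 16 tested genes had a SD of log2 fold changes of 0.71, against 0.28 in the largest cluster, with 9 positive and 7 negative values. Such a spread was not particular to this cluster. In the other clusters where a SD could be computed it ran from 0.09 to 0.78. The highest was in the cluster from *ZNF554* to *ZNF77*, and that from *ZNF101* to *ZNF100* had 0.62. At an unadjusted p under 0.05 stood 4 positive members (*ZNF440*, *ZNF69*, *ZNF439* and *ZNF844*) and 3 negative members (*ZNF433*, *ZNF136* and *ZNF44*), in a cluster singled out after its values were seen, beside 16.6% of all tested members and 22.5% of all genes tested. The positive values were 1.53, 0.93, 0.88 and 0.67, and the negative values -1.08, -0.66 and -0.41. *ZNF439* had 14, 12 and 3 counts in the scramble and 22, 17 and 16 in the siRNA libraries. Its scramble libraries alone would not have met the filter on low counts, which its siRNA libraries met. The genes right after *ZNF440* had values above 0, whereas those on both sides of *ZNF433* differed in sign, with -0.49 for *ZNF700* and 0.67 for *ZNF844*. Same-strand protein-coding genes without a row of counts shared 45.3% and 42.2% of the exon bases of *ZNF844*. Reads of these shared bases cannot be told apart. The genes of this cluster were low, with a median level of 3.21 CPM over its 19 members, against 5.68 CPM over all 160 members. The median standard error was 0.28 over its tested genes, against 0.24 over all tested members. A further 3 members of the cluster, *ZNF441*, *ZNF491* and *ZNF443*, did not pass the filter on low counts. Their levels were 1.22 ± 0.422, 1.09 ± 0.111 and 0.964 ± 0.30 CPM in the scramble and 1.49 ± 0.749, 1.77 ± 0.630 and 1.71 ± 0.758 CPM in the siRNA libraries (SD, n = 3).

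**Figure D4:**
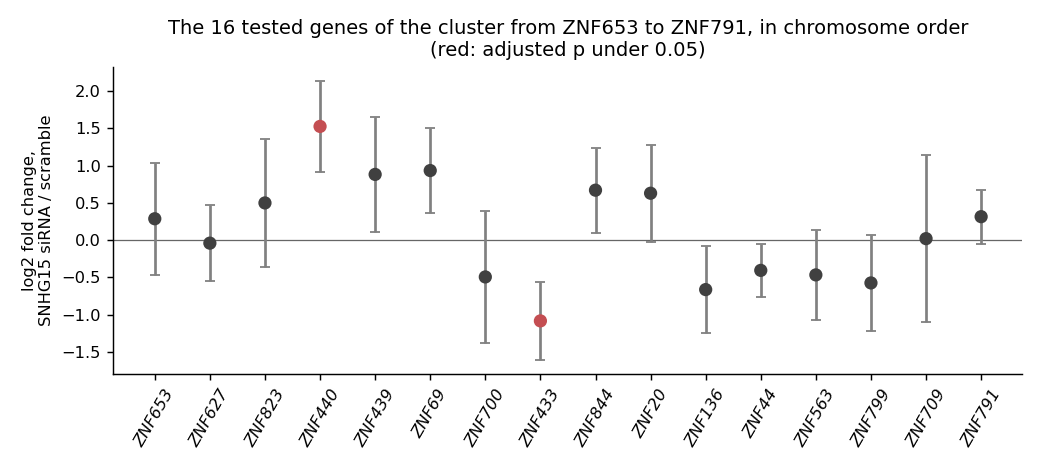
Log2 fold change with its 95% interval (y axis) for the 16 tested genes of the cluster from *ZNF653* to *ZNF791*, in their order along the chromosome (x axis). *ZNF440* at 1.53 and *ZNF433* at -1.08 passed the test (red).

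The largest cluster, from *ZNF628* to *ZNF446* at chr19:55987984-58992597, held 35 members, all tested. Their median log2 fold change was 0.04, 19 positive and 16 negative. Of them 0 passed edgeR's quasi-likelihood test, beside 5.36% of all genes tested, and 0 were called by DESeq2. At an unadjusted p under 0.05 stood 3, beside 22.5% of all genes tested. The cluster from *ZNF175* to *ZNF331* had a median of -0.03 over 24 members, and that from *ZNF565* to *ZNF573* of -0.12 over 19. *ZNF429* lay in the cluster from *ZNF101* to *ZNF100* (14 members, median 0.01), where its neighbours *ZNF493* and *ZNF100* had 0.36 and 0.12. *ZNF562* lay in the cluster from *ZNF557* to *ZNF846* (10 members, median 0.13), between *ZNF561* at -0.06 and *ZNF846* at -0.41. Of 141 neighbouring pairs within clusters, 66 (46.8%) had fold changes of the same sign, and Spearman's rho between neighbours was 0.06.

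**Figure D5:**
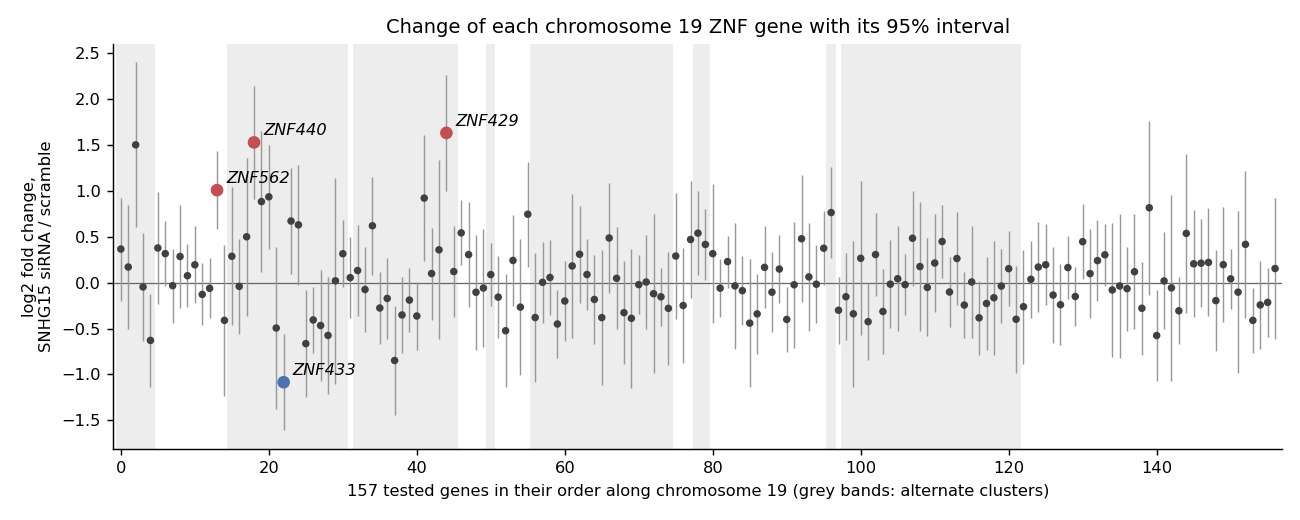
Log2 fold change with its 95% interval (y axis) for the 157 tested members in their order along chromosome 19 (x axis, alternate clusters shaded). The 3 members that rose (red) and the 1 that fell (blue) lie in 3 clusters among members with values on both sides of 0.

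By protein, all 4 members that passed the test were among the 127 tested members with a KRAB pattern, whose median log2 fold change was -0.02. Of the 30 tested members without it (median 0.05), 0 passed edgeR's quasi-likelihood test, 4 had an unadjusted p under 0.05 and 0 were called by DESeq2. The share that passed was 3.15% with the pattern, beside 5.36% of all genes tested. Differences between these shares were not tested. Exons of the tested members were poorer in GC than those of all genes tested (median 43.7% against 47.9%) and somewhat longer (median 5578 against 4963 bases). Across the 157 members the log2 fold change had a Spearman's rho of 0.08 with exon GC content, -0.01 with exon length, -0.13 with mean CPM, -0.03 with the share of unique windows and -0.10 with the number of finger patterns. These are descriptions over genes that share the same 6 libraries. Overlap was common, since 64 of the 160 members shared exon bases with a gene on the same strand, 54 with a gene on the opposite strand and 59 with none.

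The promoters of *ZNF440* and *ZNF433* are shown because the genes lie in one cluster and passed the test in opposite directions. The windows are from RefSeq (GRCh38.p14), at chr19:11814023-11814322 (+) for *ZNF440* and chr19:12035630-12035929 (-) for *ZNF433*, each from 250 bases before the transcription start to 50 after it. Capitals mark matches, on either strand, to CCAAT or GGGCGG, to the E-box CACGTG, to the cyclic AMP element TGACGTCA, to TATAAA or to the NRF1 motif.
ZNF440: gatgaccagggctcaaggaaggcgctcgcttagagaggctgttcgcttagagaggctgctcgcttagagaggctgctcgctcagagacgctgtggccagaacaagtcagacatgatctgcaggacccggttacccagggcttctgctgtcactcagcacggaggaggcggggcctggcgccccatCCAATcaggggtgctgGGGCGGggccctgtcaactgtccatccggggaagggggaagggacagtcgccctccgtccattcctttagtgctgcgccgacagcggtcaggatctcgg
ZNF433: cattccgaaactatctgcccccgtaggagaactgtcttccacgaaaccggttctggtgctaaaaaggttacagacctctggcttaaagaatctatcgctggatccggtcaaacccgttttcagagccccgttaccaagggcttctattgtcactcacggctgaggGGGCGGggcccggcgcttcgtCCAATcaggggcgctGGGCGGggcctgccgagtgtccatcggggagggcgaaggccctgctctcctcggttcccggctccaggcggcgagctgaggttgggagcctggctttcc
A local alignment of these windows covered 197 columns, 144 of them identical (73.1%), whereas the other pairs among the 4 genes aligned over 25 to 64 columns. Both windows held 1 CCAAT, with 1 GGGCGG in *ZNF440* and 2 in *ZNF433*. The *ZNF429* window held 1 CCAAT, 1 GGGCGG and overlapping TATAAA matches on both strands, and that of *ZNF562* 1 GGGCGG and 1 TGACGTCA. RefSeq gave 184 windows for 145 members, and 52.2% of these windows held CCAAT, against 34.6% of all 35116 windows, and 63.6% held GGGCGG, against 45.0%. TGACGTCA was in 3.80% against 1.85%, the NRF1 motif in 2.17% against 1.24%, CACGTG in 5.43% against 7.26% and TATAAA in 3.26% against 11.5%. The members' windows were rich in CG dinucleotides, with a median of 20.5 against 14. The short motifs GGGCGG and CCAAT are searched on both strands in windows of 300 bases, and genes with several starts contribute several windows. The 35116 windows were not limited to protein-coding or detected genes, whereas the members are both. The part of this in the differences was not tested.

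The corepressor side of the pathway was read from a list of 41 genes of KAP1, its partners and H3K9 methylation. Of these 38 were tested, and 1 rose and 1 fell (edgeR's quasi-likelihood test), which is 5.26% of the list beside 5.36% of all genes tested, and the median log2 fold change was -0.06. *ATRX*, a chromatin remodeller that maintains heterochromatin, rose from 6.21, 3.68 and 2.72 CPM in the scramble to 11.9, 8.92 and 9.87 CPM in the siRNA libraries (log2 fold change 1.20, SE 0.26, adjusted p = 0.0208). *MTA1*, a NuRD subunit, fell from 46.1 ± 8.45 to 29.7 ± 3.34 CPM (SD, n = 3, log2 fold change -0.64, adjusted p = 0.0393). Both lost the call without scramble replicate 2 or 3, with adjusted p values of 0.127 and 0.0707 for *ATRX* and 0.201 and 0.0793 for *MTA1*, which also missed the threshold without scramble replicate 1 or siRNA replicate 2 or 3 (adjusted p = 0.0646 to 0.0951). *TRIM28*, which encodes KAP1, was at 212, 166 and 201 CPM in the scramble and 323, 165 and 158 CPM in the siRNA libraries. Only siRNA replicate 1 lay above the scramble libraries, and the log2 fold change was 0.16 (SE 0.23, adjusted p = 0.728), and -0.26 (adjusted p = 0.217) without that library. *SETDB1* was at 14.4, 19.3 and 16.6 CPM against 12.5, 13.5 and 12.2 CPM (log2 fold change -0.40, SE 0.17, adjusted p = 0.180). Its conditions did not overlap, but it did not pass the test. At an unadjusted p under 0.05 stood 10 of the list, 2 higher and 8 lower (26.3%). Over all genes tested it was 22.5%, 1501 higher and 1319 lower. The higher were *ATRX* and *MPHOSPH8* (0.41, adjusted p = 0.0583, edgeR's quasi-likelihood test). Among the lower were the HP1 gene *CBX3* (-0.41, adjusted p = 0.0633) and the DNA methyltransferase *DNMT1* (-0.36, adjusted p = 0.128). The HP1 genes *CBX1* and *CBX5* had -0.29 (adjusted p = 0.223) and 0.19 (adjusted p = 0.620). Of all 38 tested genes, 17 had a positive and 21 a negative value, and this split was not tested.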

How the data were processed

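RNA of LoVo cells given scramble or *SNHG15* siRNAs was sequenced from 3 libraries each. The authors deposited raw counts per Ensembl gene, without normalization. The submitters' processing notes name STAR, featureCounts and hg19, whereas the study's methods name bowtie2 and DESeq2. Which annotation and strand setting the counting used, and whether it kept multi-mapping reads, is not given in the sources used here. The study's methods call the replicates biological, and the p-values measure the spread between these samples. Library totals were 3446922 to 10256710 counts.

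Here the counts were scaled by TMM (factors 0.961 to 1.06) and tested with edgeR 4.0.16 (R 4.3.3), the quasi-likelihood test, two-sided, after filterByExpr (minimum count 10), with Benjamini-Hochberg adjustment over 12507 genes. CPM values use the counts of the tested genes. Gene types, positions, exons and finger patterns came from GENCODE v44 lifted to GRCh37, which held 55665 of the 63677 genes. Errors are SD or SE, and intervals cover 95%. Alternatives were DESeq2 1.42.0, other scalings, filters and limits, GC and length offsets, a replicate block and leaving out each library. Named genes were *SNHG15*, all members that passed, the 5 most abundant, those nearest the limit of 60 counts, and *TRIM28*, *SETDB1* and the called genes of the KAP1 list. The members and lists were chosen with earlier results of these data known.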

Additional observations from a re-analysis of the deposited data

How the results depend on the processing

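Of the alternatives for the 160 genes, those that keep all 6 libraries gave between 1 and 7 called members beside 4. Without a filter on low counts 7 were called, 5 higher and 2 lower. With at least 10 counts in every library 2 were called, 1 of them higher (*ZNF429* and *ZNF440* had fewer counts in scramble replicate 3 and were not tested), and with a limit of 300 counts 1 was called, higher, with 0 lower. Upper-quartile factors and the GC offset each gave 5 higher. Over the whole table, 671 genes were called (392 higher and 279 lower), 1312 without the filter, 515 higher and 230 lower with upper-quartile factors, and 139 to 812 genes with 1 library left out. Leaving out each library in turn gave 0 to 5 called members, 0 to 5 of them higher and 0 to 1 lower, with 0 without scramble replicate 2. The median log2 fold change of the members stayed between -0.02 and 0.05 under all alternatives. *ZNF433* lost the call under the replicate block with GC offset (adjusted p = 0.0524, edgeR's quasi-likelihood test). For the KAP1 list, DESeq2 called 4 genes, the minimum of 10 counts 0 (9 at an unadjusted p under 0.05), and leaving out each library 0 to 3. With 1 library left out, *TRIM28* ran from -0.26 (without siRNA replicate 1) to 0.34 on the log2 scale, *ZNF121* from -0.24 to 0.012 (without siRNA replicate 1), and *ZNF544* from -0.044 (without scramble replicate 2; -0.022 without siRNA replicate 2) to 0.13. The cause of these changes was not tested. 

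Neither the labels nor the study's methods say whether samples with the same replicate number were paired. The correlations of same-numbered deviations were -0.08, 0.18 and -0.06, and those of differently numbered ones ran from -0.20 to 0.17. With 3 libraries per condition these values cannot decide whether the samples were paired. With the replicate number as a block 5 members were called, with 543 genes in all, and with the block and the GC offset 5 were called, 5 higher and 0 lower. In the shallowest library, scramble replicate 3, the median member had 19.5 counts.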

Other observations

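Zinc finger genes outside the rule were read for comparison, after values were seen. On other chromosomes, 5 of 184 tested ZNF genes (2.72%, beside 5.36% of all genes tested) passed edgeR's quasi-likelihood test. *ZNF384* fell from 65.6 ± 7.27 CPM in the scramble to 36 ± 3.55 CPM in the siRNA libraries (SD, n = 3, log2 fold change -0.87, adjusted p = 0.00569), and its conditions did not overlap. *ZNF695* fell from 8.53 ± 0.620 to 3.26 ± 0.440 CPM (log2 fold change -1.37, adjusted p = 0.00569). *ZNF395* and *ZNF609* fell by 0.62 and 0.50 on the log2 scale (adjusted p = 0.0460 and 0.0485). *ZNF467* rose, at a low level, from 0.897 ± 0.353 to 3.09 ± 0.0889 CPM (log2 fold change 1.68, adjusted p = 0.0165). Its scramble libraries alone would not have met the filter on low counts.

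On chromosome 19, 7 genes with other zinc finger names (ZBTB, ZFP or ZSCAN) were tested and 0 passed edgeR's quasi-likelihood test, beside 5.36% of all genes tested. At an unadjusted p under 0.05 stood 2, beside 22.5% of all genes tested, and 0 were called by DESeq2. *ZBTB7A*, a repressor of the POK family, was at 78.9, 78.0 and 59.6 CPM in the scramble and 126, 101 and 87.5 CPM in the siRNA libraries (log2 fold change 0.52, adjusted p = 0.0712). *ZFP14* had a log2 fold change of 0.82 (adjusted p = 0.190) and *ZFP36*, an mRNA decay factor, of -0.38 (adjusted p = 0.360). The scramble libraries of *ZFP14*, at 1.29, 1.29 and 0.907 CPM, would not alone have met the filter on low counts.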
